A study of Canis lupus familiaris with 30 samples.

Results

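Blood mononuclear cells of dogs eating raw red meat were compared with those of dogs eating kibble after 6 weeks of feeding. The comparison rests on the 4 arrays, of 30 in the series, that paired a meat sample with a kibble sample of week 6. They were chosen by their labels alone, and every array so labelled was used. The series used 2-colour Agilent arrays, on which one sample is labelled with the dye Cy3 and the other with Cy5, and the ratio of the dyes is measured gene by gene. Adult dogs ate a single diet for the whole of the feeding period: 8 dogs a kibble that contains carbohydrate and 7 dogs raw red meat, a diet high in fat and protein. Peripheral blood mononuclear cells (PBMC), the white cells that float on a density medium, were taken on 4 occasions, namely when the experiment began (week 0) and after 3, 6 and 9 weeks. No breed or genotype of the dogs was used here, and both groups were adult dogs that differed by label in diet only. The labels do not say which dog lies on which array, and they state 6 biological replicates per group while 8 channels were read for each diet at week 6. The p-values below therefore measure the spread between arrays. How far it holds the spread between dogs is not known, so they are not read as a test across dogs.

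Mononuclear cells are mainly T cells, B cells, natural killer (NK) cells and monocytes. Platelets cling to monocytes and can float in the same layer, and a few neutrophils and basophils are carried along, so a preparation of PBMC also holds transcripts of these cells. Ribosomal protein genes and genes of protein export follow how actively lymphocytes make protein, and genes of glucose use and nucleotide synthesis rise when lymphocytes prepare to divide. In RNA from a mixed sample, fewer cells of one type and less RNA per cell cannot be told apart, and this holds for every cell type marker below. No sequences are shown, since the tables used here hold none for these probes.

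All values are log2 ratios of meat over kibble, so a value of -1 is a 2-fold lower level in the meat-fed dogs. Where values of single arrays are given, the order is meat 6/kibble 6 replicate 1, meat 6/kibble 6 replicate 2, kibble 6/meat 6 replicate 1 and kibble 6/meat 6 replicate 2, each array being named by its Cy3 and then its Cy5 sample. The fitted value comes from a limma model over all 30 arrays with a dye term for each gene, and it is given with its standard error (SE). The 4 arrays carry a weight of 0.82 in it, and the rest reaches week 6 through the arrays that link weeks 3 and 6 and the diet arrays of week 3. A gene is called where the Benjamini-Hochberg adjusted p of limma is under 0.05 over all genes and unnamed transcripts tested.

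At week 6 1617 of 25933 genes and unnamed transcripts were called (6.24%). Of these 723 were higher in the meat-fed dogs (2.79%) and 894 lower (3.45%), while 5044 had an unadjusted p under 0.05. The lower ones differed by more, with a median size of 0.51 against 0.29 for the higher ones. A fitted difference of more than 1 log2 was seen in 124 lower and in 11 higher ones. Of 1086 genes with a symbol 29 were called higher and 77 lower, and the median over all 1086 was -0.03. The fitted direction was seen on 4 of 4 arrays in 67 of the 77 lower and in 17 of the 29 higher genes. Over everything measured on all 4 arrays, 5756 of 25921 had the same sign on each of them. Feature Extraction's own processed signals shifted the balance to 432 higher and 816 lower, median centring to 191 and 167, and array weights to 1679 and 1449.

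The 4 arrays did not measure alike. Over 25921 genes and transcripts the ratios of both meat 6/kibble 6 arrays correlated at 0.54 and those of both kibble 6/meat 6 arrays at 0.38, while arrays of opposite dye order correlated at 0.05 to 0.17. After the fitted dye term was taken off, the arrays of opposite order correlated at 0.14 to 0.30. Kibble 6/meat 6 replicate 1 had the widest spread (SD 0.37, against 0.24 to 0.33 on the others) and held the largest absolute value for 69 of the 106 called genes. Without it 138 genes and transcripts were called, 127 of them among the 1617, and 12 of the 106 named genes. They included CAMP, LOC609402, GP1BA, PTGS1, HSD17B14, CCL5, AK1, MS4A2, YBX3, SEC61G and RPS27A. The fitted direction of none of the 106 called genes turned when that array was left out. Without kibble 6/meat 6 replicate 2 950 were called, 61 of the 106 named genes among them, and with the slide as a fixed block 463, with 39 of the 106. The 4 arrays alone, with a dye term and without borrowing from other arrays, gave 1 call. All 4 arrays lay on 1 slide that held no other week's diet arrays, so for differences between weeks the week and the slide cannot be told apart. CD4 of T cells, MS4A1 (CD20) of B cells and CYBB of monocytes stood well above background in all 8 channels of week 6. Whole blood would give such signals too, so they do not test the mononuclear cell label.

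**Figure D1:**
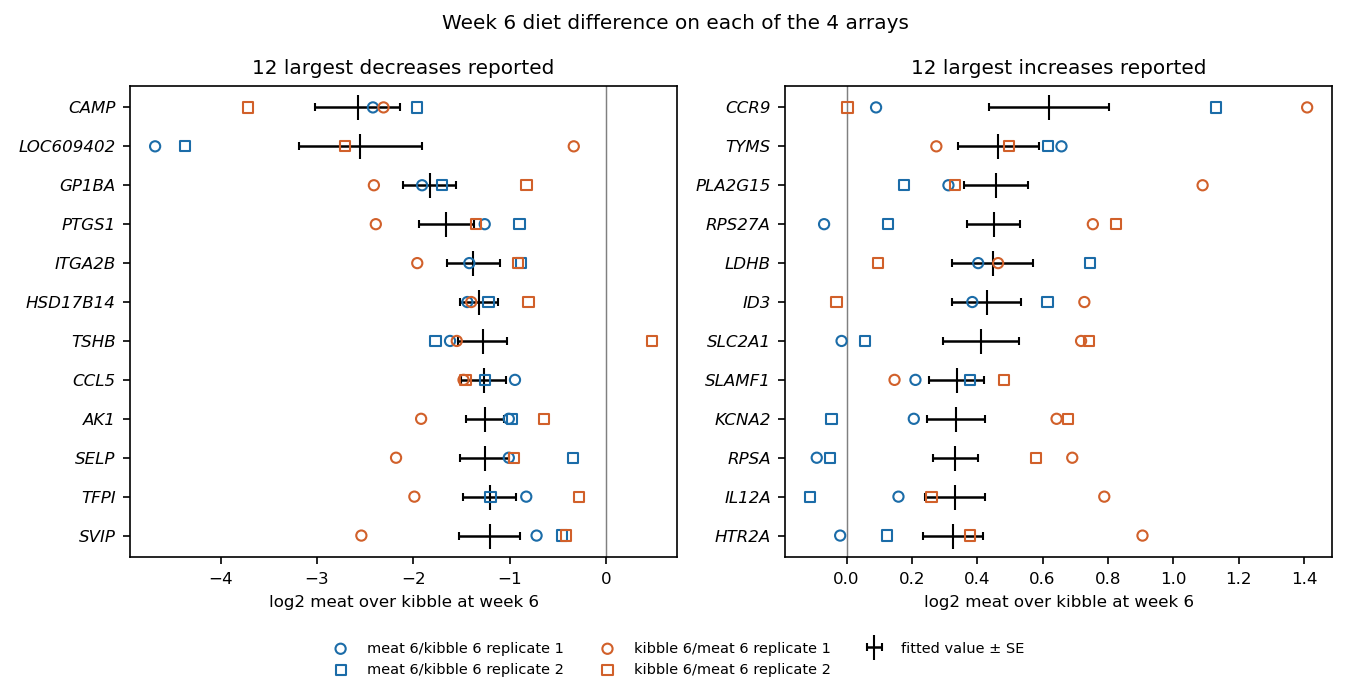
Log2 ratio of meat over kibble (x axis) on each of the 4 arrays of week 6, for the 12 called genes reported here with the largest decreases (left) and increases (right); symbols mark the arrays, black ticks the fitted value with its SE. CAMP and GP1BA lie below 0 on every array, RPS27A and RPSA lie near 0 on the meat 6/kibble 6 arrays and above 0.5 on the others, and PLA2G15 reaches 1.09 on kibble 6/meat 6 replicate 1 alone.

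Platelet genes had the lowest median of the gene lists in the meat-fed dogs. Of 8 platelet genes measured 7 were called lower and 0 higher, where 3.45% of everything tested was called lower, with a list median of -1.14 against -0.03 over all named genes. The list median on the single arrays was -0.82, -0.68, -1.83 and -0.85, so it was negative on each of them and furthest from 0 on kibble 6/meat 6 replicate 1. GP1BA, part of the receptor by which platelets grip von Willebrand factor, stood at -1.91, -1.70, -2.41 and -0.83. Its fitted value was -1.83 ± 0.28, a 3.56-fold lower level (limma adjusted p = 0.00112). PTGS1, the cyclooxygenase from which platelets make thromboxane, stood at -1.26, -0.90, -2.39 and -1.35. It fitted at -1.66 ± 0.28 (limma adjusted p = 0.00248), and its other probe pointed the same way. All 4 arrays lay below 0 for both genes.

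The fibrinogen receptor of platelets is a pair of integrin chains, and both were lower. ITGA2B stood at -1.42, -0.88, -1.96 and -0.92 and ITGB3 at -0.51, -0.65, -1.70 and -0.87. They fitted at -1.38 ± 0.28 and -1.02 ± 0.22 (limma adjusted p = 0.00489 and 0.00739). P-selectin, SELP, the adhesion molecule that platelets bring to their surface on activation, ranged from -2.18 to -0.34 over the arrays and fitted at -1.26 ± 0.25. Clusterin, CLU, a chaperone carried in platelet granules, fitted at -0.85 ± 0.15, and all 4 of its other probes were lower too. P2RY12, the ADP receptor that clopidogrel blocks, stood at -0.19, -0.72, -1.62 and -0.10 and fitted at -0.77 ± 0.17. On the arrays other than kibble 6/meat 6 replicate 1 it therefore lay between -0.72 and -0.10. VWF, von Willebrand factor itself, was the member not called, at -0.25 ± 0.13 (limma adjusted p = 0.306). Without kibble 6/meat 6 replicate 1 the list median was -0.91 and 2 of the 8 genes were called, GP1BA at -1.60 and PTGS1 at -1.42 (limma adjusted p = 0.0246 and 0.0458).

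Other called genes with known parts in platelets and clotting lay outside that list and were grouped after their values were seen. TFPI, the inhibitor that stops the tissue factor pathway of clotting, stood at -0.83, -1.20, -1.99 and -0.28 and fitted at -1.21 ± 0.28. GUCY1A1, a subunit of the nitric oxide receptor that makes cyclic GMP, fitted at -0.86 ± 0.20, and PDE5A, the enzyme that breaks cyclic GMP down, at -0.82 ± 0.23. P2RY1, the second ADP receptor of platelets, fitted at -0.28 ± 0.07, and EGF and ANGPT1, growth factors, at -0.54 ± 0.15 and -0.57 ± 0.16. The metalloproteinase inhibitor TIMP1 stood at -0.87, -1.07, -1.13 and -0.26 and fitted at -0.94 ± 0.17. STOM, a membrane protein of platelets and red cells, fitted at -1.01 ± 0.24, with -2.05 on kibble 6/meat 6 replicate 1 against -0.58 to -0.38 on the others. RAB27A, which docks granules for release, fitted at -0.75 ± 0.15, and NOS3, a nitric oxide synthase, at -0.26 ± 0.06. All of these were lower on 4 of 4 arrays. Red cell genes, a further source of RNA in such samples, gave 0 calls of 7 measured, with the highest value at 0.19 (GYPC).

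Granulocyte markers, of cells that density separation leaves mostly behind, had mostly negative fitted values, but for several of them the arrays differed in sign. CAMP, the cathelicidin peptide stored in neutrophil granules, had the largest difference of any named gene. It stood at -2.42, -1.96, -2.31 and -3.72, below 0 on every array, and fitted at -2.58 ± 0.44, a 5.99-fold lower level (limma adjusted p = 0.00248). It was the only called member of 6 neutrophil genes measured, beside 3.45% of everything tested called lower. All 6 had negative fitted values, with a median of -0.39. Lactoferrin, LTF, stood at -0.01, -1.12, -0.17 and -0.61 and fitted at -0.57 ± 0.25 (limma adjusted p = 0.196). The gelatinase MMP9 stood at -3.78, 0.22, 2.94 and -4.20, so the arrays differed in sign and spanned 7.14 log2. S100A8, a calcium-binding protein abundant in neutrophils, likewise ranged from -1.68 to 1.46, CXCR2 fitted at -0.02 and elastase, ELANE, at -0.08. For CAMP the fit without kibble 6/meat 6 replicate 1 gave -2.70 (limma adjusted p = 0.0215).

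MS4A2, the beta chain of the high-affinity IgE receptor on basophils and mast cells, stood at -1.06, -1.07, -0.09 and -1.53. It fitted at -0.98 ± 0.17 (limma adjusted p = 0.00248) and without kibble 6/meat 6 replicate 1, where it lay near 0, at -1.27 (limma adjusted p = 0.00041). The alpha chain of the same receptor, FCER1A, did not follow it on the arrays, at -0.93, 0.63, 0.04 and -0.25 (fitted -0.11 ± 0.20). KIT, IL4 and the eosinophil receptor CCR3 fitted at -0.10, -0.07 and -0.28, none of them called. MS4A2 was the 1 called gene of 6 in its list, beside 6.24% of everything tested, and the list median was -0.10.

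Monocyte genes were all on the lower side, and 1 of 7 was called lower, beside 3.45% of everything tested. CYBB, the core of the oxidase with which phagocytes kill microbes, stood at -0.46, -0.70, -0.87 and -0.45 and fitted at -0.64 ± 0.15 (limma adjusted p = 0.0121). The haemoglobin scavenger receptor CD163 fitted at -0.52 ± 0.22, the protease CTSS at -0.36 ± 0.14 and the endotoxin receptor TLR4 at -0.30 ± 0.15, with limma adjusted p = 0.175, 0.149 and 0.286. TLR4 was positive on meat 6/kibble 6 replicate 1 (0.23) and negative on the others. The list median was -0.30, and its single-array medians were 0.19, -0.70, -0.26 and -0.37. Called genes outside the list that myeloid cells express were grouped after their values were seen. Galectin-3, LGALS3, was lower on each array at -0.53, -0.87, -0.77 and -0.62 (fitted -0.70 ± 0.19), and annexin A2, ANXA2, fitted at -0.43 ± 0.10. Without kibble 6/meat 6 replicate 1 no monocyte gene was called in limma, with CYBB at -0.62 (adjusted p = 0.0898). LGALS3 and ANXA2 lost their calls there too (limma adjusted p = 0.133 and 0.0918).

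Cytotoxic T and NK cell genes were on the lower side, with 5 of 9 measured called lower beside 3.45% over everything tested, 0 higher and a list median of -0.55. The single-array medians were -0.21, -0.63, -0.81 and -0.40, again all negative. CCL5, a chemokine stored in cytotoxic granules and also in platelets, stood at -0.95, -1.26, -1.48 and -1.46. These values span 0.54 log2, and the fit gave -1.27 ± 0.23, a 2.41-fold lower level (limma adjusted p = 0.00332). KLRD1 (CD94), an NK cell receptor chain, stood at -0.21, -0.61, -1.22 and -0.64 and fitted at -0.68 ± 0.18. Perforin, PRF1, which opens pores in target cells, stood at -0.21, -0.86, -0.82 and -0.75 and fitted at -0.61 ± 0.15. The chemokine CCL4 fitted at -0.58 ± 0.14 and Fas ligand, FASLG, a death signal on cytotoxic cells, at -0.43 ± 0.13. All 5 genes were below 0 on 4 of 4 arrays.

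CD8A, the co-receptor that defines cytotoxic T cells, stood at -0.54, -1.29, -0.10 and -0.40, negative throughout, but missed the threshold at -0.55 ± 0.17 (limma adjusted p = 0.0595). CX3CR1, a receptor of effector lymphocytes and monocytes, stood at -0.15, -1.40, -0.26 and 0.01 and fitted at -0.47 ± 0.15 (limma adjusted p = 0.0732). Interferon gamma, IFNG, fitted at 0.00, and the NK receptor NCR1 was well above background in only 1 meat and 3 kibble channels. The list without kibble 6/meat 6 replicate 1 had a median of -0.46, and CCL5 was its 1 called member (-1.24, limma adjusted p = 0.0447). The part that platelets, which also carry CCL5, had in its value was not tested.

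**Figure D2:**
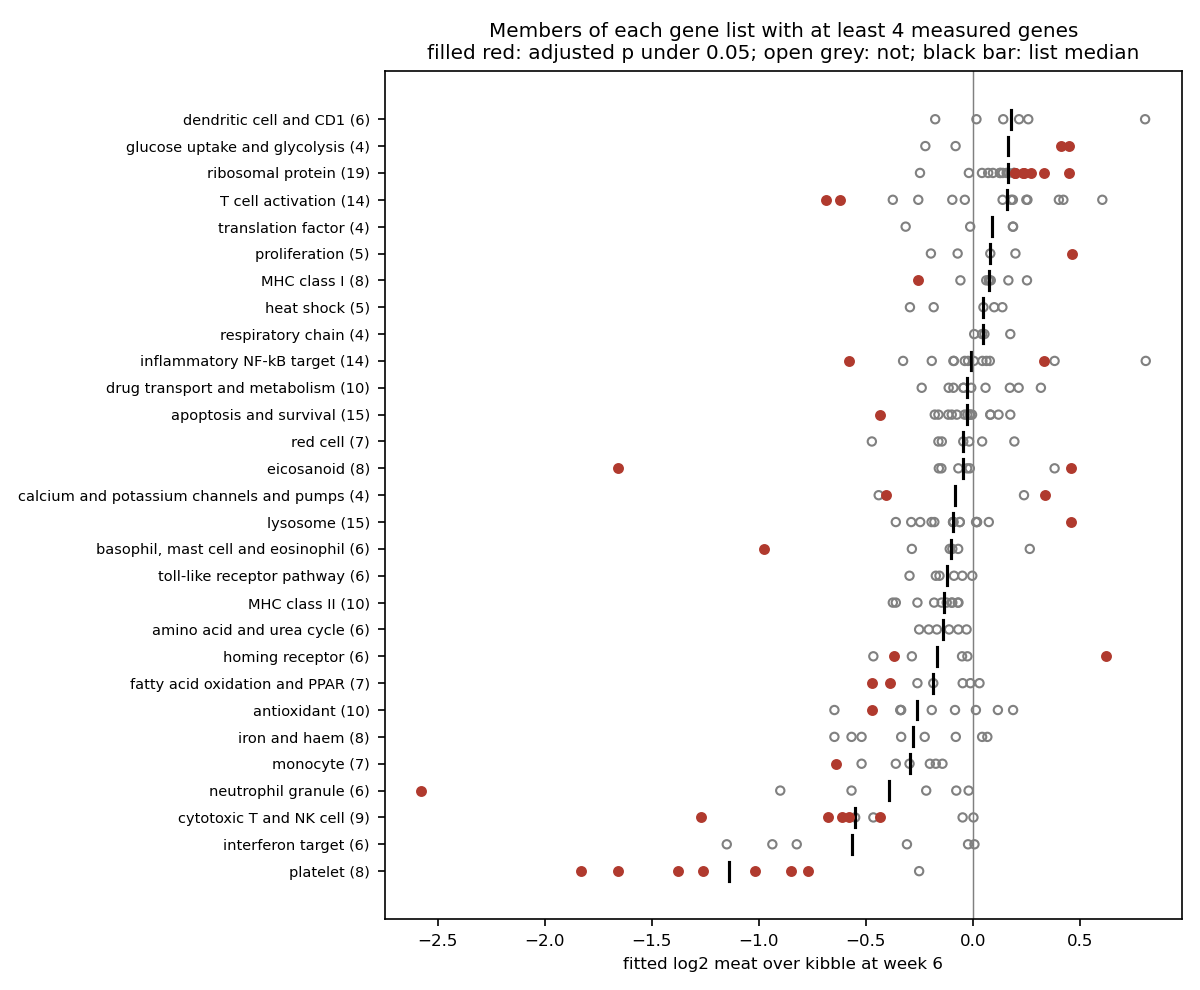
Fitted log2 ratio of meat over kibble at week 6 (x axis) for the members of each gene list with at least 4 measured genes (number in brackets); red points passed the adjusted threshold, grey ones did not, and black bars are list medians. The platelet list lies furthest to the left with 7 of 8 genes called, and the ribosomal list sits between -0.25 and 0.45.

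Genes of T cell activation and homing went both ways. CD44, an adhesion receptor that is raised on activated and memory T cells but also found on other leukocytes, stood at -0.78, -0.52, -0.93 and -0.31 and was lower at -0.68 ± 0.13 (limma adjusted p = 0.00384). IL2RA, the inducible chain of the interleukin-2 receptor, stood at -0.20, -0.82, -1.01 and -0.19 and was lower at -0.62 ± 0.13 (limma adjusted p = 0.00672). These were the 2 called of 14 activation genes measured, beside 6.24% of everything tested, and the list median was 0.16. The inhibitory receptor CTLA4 was positive on every array, at 0.39, 0.62, 0.38 and 0.66, but its SE was wide (0.60 ± 0.29) and the limma adjusted p was 0.258. CD40LG, the T cell signal to B cells, fitted at 0.42 ± 0.14 and the co-stimulatory receptor CD28 at 0.25 ± 0.08, neither called (limma adjusted p = 0.0784 and 0.0712). CCR9, which guides lymphocytes to the small intestine, had the highest fitted value of the 29 genes called higher, at 0.62 ± 0.18 (limma adjusted p = 0.0422). It stood at 0.09, 1.13, 1.41 and 0.00, so the increase came from 2 arrays of opposite dye order and the other 2 lay near 0. Its call was lost in 10 of the 30 fits without 1 array, with 0.35 without kibble 6/meat 6 replicate 1. It was the 1 of 6 homing receptors called higher, beside 2.79% of everything tested, and 1 was called lower. The other 5 had negative fitted values, and the list median was -0.17.

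Other lymphocyte genes among the increases were grouped after their values were seen. SLAMF1, a surface receptor of activated lymphocytes, stood at 0.21, 0.38, 0.15 and 0.48 and fitted at 0.34 ± 0.08. ID3, which restrains E proteins in lymphocyte development, stood at 0.39, 0.61, 0.73 and -0.03 and fitted at 0.43 ± 0.10. KCNA2, a voltage-gated potassium channel, fitted at 0.34 ± 0.09, while the calcium pump ATP2B1 was lower at -0.41 ± 0.11 with values of -0.48, -0.49, -0.34 and -0.37 that lie close together. They were the called members of 4 channel and pump genes, beside 6.24% of everything tested. IL12A, a chain of interleukin-12, fitted at 0.33 ± 0.09, with its highest value on kibble 6/meat 6 replicate 1 (0.79). It was, with CCL4 in the other direction, 1 of 2 called of 14 inflammatory NF-kB targets, beside 6.24% of everything tested. CXCL8, the neutrophil-attracting chemokine, ranged from -0.01 to 2.60 and was not called. B cells were represented by MS4A1, at 0.23, 0.87, -1.74 and 0.39, and CD40 (fitted -0.15 ± 0.16), neither called. The CD1 molecules, which present lipids, gave 0 calls, with CD1A6 at 0.35, 0.62, 0.27 and 2.15 and a fitted 0.81 ± 0.26 (limma adjusted p = 0.064). Without kibble 6/meat 6 replicate 1 the median of the 6 dendritic cell and CD1 genes moved from 0.18 to 0.43, and 2 were called higher, CD1A8 (0.38, limma adjusted p = 0.0296) and the cytokine receptor FLT3 (0.51, limma adjusted p = 0.0471).

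Of 10 MHC class II and 8 MHC class I genes measured 1 was called, beside 6.24% of everything tested. All 10 genes measured of the MHC class II list, which also holds the co-stimulatory ligands CD80 and CD86 and the protease CTSS, were on the lower side, between -0.37 and -0.07, and 0 were called in limma, with 3 at an unadjusted p under 0.05. The list median was -0.13, and on the single arrays 0.17, -0.14, -0.52 and 0.03, so it was lowest on kibble 6/meat 6 replicate 1 and positive on 2 arrays. Without that array it was -0.03, and with median centring 0.0047. Of 8 MHC class I genes TAPBP (tapasin), which loads peptides onto class I molecules, was lower at -0.26 ± 0.06 (limma adjusted p = 0.012), and the class I gene DLA-79 ranged from -0.62 to 1.49 over the arrays.

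Ribosomal protein genes were higher in the meat-fed dogs by small amounts, and their ratios differed between the dye orders. Of 19 measured 7 were called higher, beside 2.79% of everything tested, and 0 lower, 17 had a positive fitted value, and the list median was 0.17. On the single arrays the list median was -0.19, -0.07, 0.46 and 0.47, negative on both arrays that carried the meat sample in Cy3 and positive on both that carried it in Cy5. RPS27A, a ribosomal protein made as a fusion with ubiquitin, stood at -0.07, 0.13, 0.75 and 0.82 and fitted at 0.45 ± 0.08 (limma adjusted p = 0.00305). RPSA, the ribosomal protein also known as the laminin receptor, stood at -0.09, -0.05, 0.69 and 0.58 and fitted at 0.33 ± 0.07 (limma adjusted p = 0.00606). Both genes were near or below 0 in one dye order and above 0.5 in the other. RPL10A and RPL12, proteins of the large subunit, showed the same split at -0.19, 0.02, 0.63 and 0.48 and -0.10, -0.23, 0.69 and 0.51. In RPL3 and RPL4 all 4 arrays were above 0, at 0.11, 0.13, 0.49 and 0.27 for RPL3, and they fitted at 0.24 ± 0.06 and 0.20 ± 0.06. RPL18 was the member with the lowest value, -0.25 ± 0.10, and was not called (limma adjusted p = 0.177). Without kibble 6/meat 6 replicate 1 the median was 0.15 and 1 member, RPS27A, was called (0.43, limma adjusted p = 0.0438). Ribosomal protein genes have many processed copies in mammalian genomes, and a probe may read several of them. Of 4 translation factors measured 0 were called.

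Called genes of protein export and RNA processing were grouped after their values were seen, and apart from SEC11C those named here were higher. SRP68 and SRP72, subunits of the particle that takes nascent secreted proteins to the endoplasmic reticulum, fitted at 0.17 ± 0.05 and 0.23 ± 0.07. SEC61G, a subunit of the channel they enter, fitted at 0.25 ± 0.07, and SEC11C, part of the signal peptidase, was lower at -0.64 ± 0.18. SNRPD2 and SNRPG, core proteins of the spliceosome, fitted at 0.18 ± 0.05 and 0.22 ± 0.06. CLNS1A and SMN, which help assemble these core proteins, fitted at 0.18 ± 0.05 and 0.26 ± 0.07. MED7, a mediator subunit, and APEX1, a DNA repair enzyme, fitted at 0.22 ± 0.05 and 0.23 ± 0.06. SRP68, APEX1, SNRPD2, SNRPG and MED7 were positive on all 4 arrays, whereas SMN stood at -0.02, -0.14, 0.58 and 0.67, divided by dye order. The calls of SRP68, SRP72, SNRPD2, SNRPG and SEC61G were each lost in at least 11 of the 30 fits without 1 array.

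A gene of nucleotide synthesis and a pair of genes of glucose use were among the larger increases. TYMS, the enzyme that makes thymidylate for DNA, stood at 0.66, 0.62, 0.28 and 0.50 and fitted at 0.46 ± 0.12 (limma adjusted p = 0.0243). It was the 1 called of 5 proliferation genes, beside 6.24% of everything tested. Of that list 3 members had a positive and 2 a negative fitted value, with a median of 0.08. Without kibble 6/meat 6 replicate 1 the proliferation list had 0 calls. LDHB, a lactate dehydrogenase chain, stood at 0.40, 0.74, 0.46 and 0.10 and fitted at 0.45 ± 0.12. SLC2A1, the glucose transporter GLUT1, stood at -0.02, 0.06, 0.72 and 0.74 and fitted at 0.41 ± 0.12, with both meat 6/kibble 6 arrays near 0. LDHB and SLC2A1 were 2 of 4 genes of glucose uptake and glycolysis, beside 2.79% of everything tested called higher. Of these 4 genes 0 were called without kibble 6/meat 6 replicate 1. GAPDH and TPI1 fitted at -0.22 ± 0.13 and -0.08 ± 0.10 without a call. The respiratory chain list had 0 calls of 4.

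In the lists of fatty acid oxidation and of antioxidant genes catalase and PPARG were called, both lower. Catalase, CAT, stood at 0.10, -0.40, -1.15 and -0.37 and was lower at -0.47 ± 0.12 (limma adjusted p = 0.0158). PPARG, a fatty acid-sensing nuclear receptor, stood at -0.20, -0.35, -0.22 and -0.80 and was lower at -0.39 ± 0.11 (limma adjusted p = 0.0293). They were the 2 called of 7 genes of fatty acid oxidation and PPAR, and CPT1A, which admits fatty acids to mitochondria, fitted at -0.26 ± 0.11 (limma adjusted p = 0.199). Of everything tested 3.45% was called lower. CAT was also the 1 called of 10 antioxidant genes, of which 7 had a negative and 3 (SOD1, PRDX1 and GPX3) a positive fitted value. The antioxidant list median on the single arrays was 0.08, 0.06, -0.33 and -0.22, positive in one dye order and negative in the other. No gene of either list was called without kibble 6/meat 6 replicate 1. Glutathione peroxidase, GPX1, lay at -0.33, -0.34, -0.43 and -0.36, a span of 0.10 over the 4 arrays, but was not called at -0.34 ± 0.12 (limma adjusted p = 0.104). The selenoproteins SELENOH and SELENOK, outside these lists and chosen after their values were seen, were higher on 4 of 4 arrays at 0.24 ± 0.06 and 0.21 ± 0.05. Ferritin heavy chain, FTH1, the iron store of the cell, lay at -0.77, -0.91, -0.93 and -0.01 and fitted at -0.65 ± 0.21 (limma adjusted p = 0.0598), and 0 of 8 iron and haem genes were called. PLA2G15, a lysosomal phospholipase, was higher at 0.46 ± 0.10, with 1.09 on kibble 6/meat 6 replicate 1 and 0.18 to 0.33 on the others. It was the 1 called of 15 lysosomal genes, a share near the 6.24% called of everything tested. With PTGS1 in the other direction it was also 1 of 2 called of 8 eicosanoid genes.

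Interferon targets had a low median, -0.56, with 0 of 6 called in limma and 4 lower at an unadjusted p under 0.05. The antiviral GTPase MX1 stood at -0.40, -1.59, -3.56 and 0.91, and the RNA-sensing synthetases OAS1 and OAS2 at -0.05, -1.26, -2.39 and 0.39 and -0.18, -1.12, -2.36 and 0.04. All 3 were lowest on kibble 6/meat 6 replicate 1, and MX1 was positive on kibble 6/meat 6 replicate 2. Their fitted values were -1.15 ± 0.47, -0.82 ± 0.31 and -0.94 ± 0.33 (limma adjusted p = 0.162, 0.126 and 0.0959). Without that array the list median was -0.18.

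Several of the largest decreases belong to no list. LOC609402, a protein-coding gene without a given name, stood at -4.68, -4.37, -0.34 and -2.71 and fitted at -2.55 ± 0.64, a 5.87-fold lower level (limma adjusted p = 0.0174). It was lower on each array with values from -4.68 to -0.34. HSD17B14, a dehydrogenase of steroids and fatty acids, was steadier at -1.44, -1.22, -1.40 and -0.81 and fitted at -1.32 ± 0.19 (limma adjusted p = 0.00083). AK1, an adenylate kinase, stood at -1.01, -0.97, -1.92 and -0.65 and fitted at -1.26 ± 0.20 (limma adjusted p = 0.0012). TSHB, whose best known product is the beta chain of thyrotropin, stood at -1.62, -1.77, -1.55 and 0.48 and fitted at -1.28 ± 0.26. GATM, the first enzyme of creatine synthesis, stood at -0.85, -2.10, -1.61 and 0.74 and fitted at -1.16 ± 0.34. In both TSHB and GATM the last array was positive and the others strongly negative. SVIP, a regulator of protein degradation at the endoplasmic reticulum, fitted at -1.21 ± 0.32 with -2.54 on kibble 6/meat 6 replicate 1 and -0.72 to -0.42 on the others.

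LOC609402, TSHB and GATM were also the called genes whose 4 arrays differed most from the estimate that the other 26 arrays give for week 6. For LOC609402 the 4-array mean was -3.02 ± 1.99 (SD, n = 4) and the other arrays gave -1 ± 1.49 (SE). For TSHB the same pair of values was -1.12 ± 1.07 and -2.30 ± 0.52, and for GATM -0.95 ± 1.24 and -2.37 ± 0.69. At the other end, 10 called genes had the largest mean over SD on the 4 arrays: CAMP, HSD17B14, CCL5, LGALS3, YBX3, SULF2, ATP2B1, SRP68, SELENOK and APEX1. YBX3, a protein that binds nucleic acids, was among them at -0.55, -0.67, -0.82 and -0.54 (fitted -0.68 ± 0.10, limma adjusted p = 0.00083). SULF2, which trims heparan sulfate, lay at -0.41, -0.63, -0.41 and -0.78 and fitted at -0.60 ± 0.15.

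Further called genes, lower except for HTR2A, are given by their role, as grouped after their values were seen. Small GTPases and their partners comprised RHOA (-0.29), RHOB (-0.33), RAC1 (-0.42), RAB11A (-0.36) and ARHGAP18 (-0.38), which govern the actin skeleton and vesicle traffic. G protein subunits and signalling enzymes comprised GNAQ (-0.43), GNAI2 (-0.28), the calcineurin catalytic subunit PPP3CA (-0.44), the tyrosine kinase FER (-0.74) and the kinases HIPK2 (-0.33) and DAPK1 (-0.23). Receptors comprised EPOR (-0.53) for erythropoietin, BDKRB1 (-0.36) for bradykinin and CD47 (-0.28), a signal against engulfment. The galectins LGALS4 (-0.94) and LGALS8 (-0.33), the hormone relaxin RLN2 (-0.88), the trefoil peptide TFF2 (-0.62), the water channel AQP1 (-0.66) and the nuclear lamin LMNA (-0.67) were lower too. So were MTPN (-0.65), CLIC2 (-0.50), RTN3 (-0.46), DYNLT3 (-0.40), SERF2 (-0.43), RIIAD1 (-0.63) and WWP2 (-0.30). The genes LOC448801 (-1.15), LOC480600 (-0.52), LOC478000 (-0.29) and LOC477518 (-0.25) have no given name. GHR was well above background in 0 meat channels and 1 kibble channel, so its call has no measured size. The serotonin receptor HTR2A (0.33) was called too, with 0.91 on kibble 6/meat 6 replicate 1.

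Most called features carry no symbol: 1511 of the 1617 are known here by an accession or array identifier alone. Among them the largest decreases were ENSCAFT00000043427, at -4.82, -4.35, -0.54 and -3.11 (fitted -2.73 ± 0.67, limma adjusted p = 0.0149), and M30130, at -2.17, -2.63, -3.43 and -3.27 (fitted -2.66 ± 0.37, limma adjusted p = 0.000707). The largest increases were TC71707, at 0.08, 3.97, 0.08 and 3.64 (fitted 1.90 ± 0.55, limma adjusted p = 0.0384), and TC73608, at 0.19, 2.97, 0.10 and 2.70 (fitted 1.43 ± 0.40, limma adjusted p = 0.0327). Both increases lay on the arrays numbered replicate 2, in either dye order, and were near 0 on those numbered replicate 1.

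The remaining lists held no called gene, apart from the death signal FASLG. Toll-like receptor genes lay between -0.30 and 0.00 (6 measured), amino acid and urea cycle genes between -0.25 and -0.03 (6 measured), and cholesterol and lipid synthesis genes between -0.29 and -0.11 (3 measured). Heat shock genes lay between -0.29 (HSPB1) and 0.14 (HSP90B1), and genes of drug transport and metabolism between -0.24 (CYP1B1) and 0.32 (ADH5). In these lists limma called 0 genes, with 0, 0, 2, 1 and 1 at an unadjusted p under 0.05 in the same order. Of 15 apoptosis genes only FASLG was called, beside 6.24% of everything tested. The immediate early genes FOSB and NR4A1, which respond fast to stimulation and handling, fitted at -0.14 ± 0.08 and 0.11 ± 0.23, neither called.

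The difference at week 6 was then set beside the other weeks, to ask whether it was larger than at the start or at the other samplings. Tested as differences of differences over 25933 genes and transcripts, week 6 minus week 0, minus week 3 and minus week 9 each gave 0 calls (0%) in limma, with 2258, 2522 and 1293 at an unadjusted p under 0.05. With array weights the counts were 3, 2 and 0 in the same order. Without 1 array of week 0, meat 0/kibble 0 replicate 1, week 6 minus week 0 gave 256 calls, 239 higher and 17 lower. Of these 16 had a symbol, among them RPL12, RPS27A, RPL3, RPSA, RPL4, RPS10, RPL10A and RPLP0 on the higher side (0.28 to 0.57) and OAS2 and DBH on the lower (-1.86 and -0.52). The weeks share arrays in the fit, so single values are only set side by side. In the order of weeks 0, 3, 6 and 9, GP1BA was at -0.72 ± 0.30, -1.23 ± 0.30, -1.83 ± 0.28 and -0.86 ± 0.28, and PTGS1 at -1.04 ± 0.31, -0.87 ± 0.31, -1.66 ± 0.28 and -1.02 ± 0.28. The platelet list median was -0.54, -0.72, -1.14 and -0.53, so these genes already lay on the lower side in the meat group at the start. Of the 106 called named genes 88 had the sign of week 6 already at week 0. These were 72 of the 77 lower and 16 of the 29 higher genes. At week 3 all 106 had that sign, and at week 9 98 did. The median of the cytotoxic list was 0.02, -0.41, -0.55 and 0.09, and that of the ribosomal list -0.09, 0.01, 0.17 and -0.01. MS4A2 was at -1.17 ± 0.18, -1.18 ± 0.18, -0.98 ± 0.17 and -1.36 ± 0.17, below 0 by about the same amount throughout. CAMP was at -1.86 ± 0.47, -2.95 ± 0.47, -2.58 ± 0.44 and -2.08 ± 0.44.

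**Figure D3:**
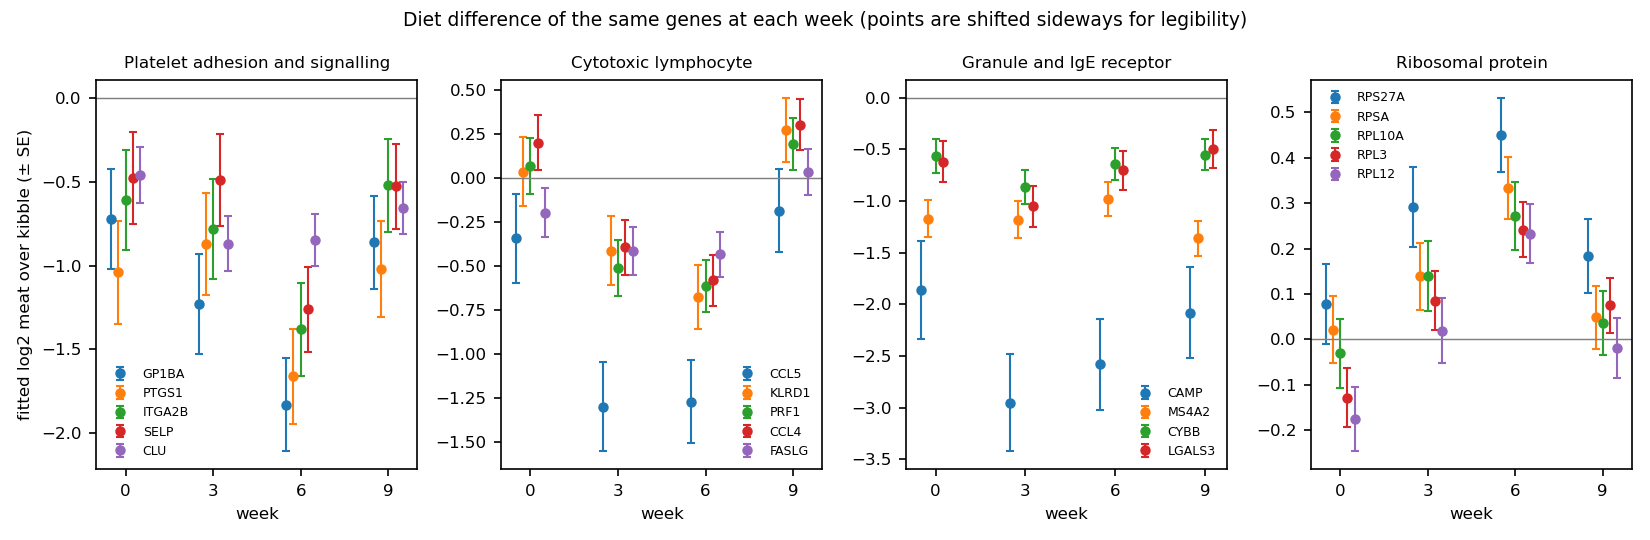
Fitted log2 ratio of meat over kibble (y axis, ± SE) at weeks 0, 3, 6 and 9 for called genes of 4 groups. PRF1, KLRD1 and CCL4 lie below 0 at weeks 3 and 6 and above 0 at weeks 0 and 9. Of the same group CCL5 lies below 0 at every week, and FASLG does so at weeks 0, 3 and 6. CAMP and MS4A2 lie below 0 at every week. No difference between week 6 and another week passed the adjusted threshold.

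The genes nearest to a difference between weeks are named by their p, although none passed. Against week 3 they were, on the higher side at week 6, RPS10 (0.19), CLIC1 (0.31) and PSMD4 (0.20). On the lower side they were CRYGD (-0.28) and MYH1 (-0.18). Against week 9 the named genes were CASR (0.19), RPSA (0.28) and RPL37 (0.22) on the higher side and CCL4 (-0.88), LOC609402 (-3.75) and PRF1 (-0.81) on the lower. Against week 0 they were MED7 (0.33), RPL12 (0.41) and RPL3 (0.37) on the higher side and CCL4 (-0.78), CD44 (-0.64) and MTPN (-0.61) on the lower. The numbers in brackets are log2 differences, and the limma adjusted p of these genes was 0.343 at the lowest. Within the diets, GP1BA at week 6 differed from week 3 by -0.33 ± 0.28 in kibble-fed and by -0.94 ± 0.28 (SE) in meat-fed dogs, as values and without a test here. The arrays that link weeks 3 and 6 carried week 6 in Cy5 for kibble and in Cy3 for meat, without a dye swap. An error in the fitted dye term would therefore enter these values with opposite sign.

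**Figure D4:**
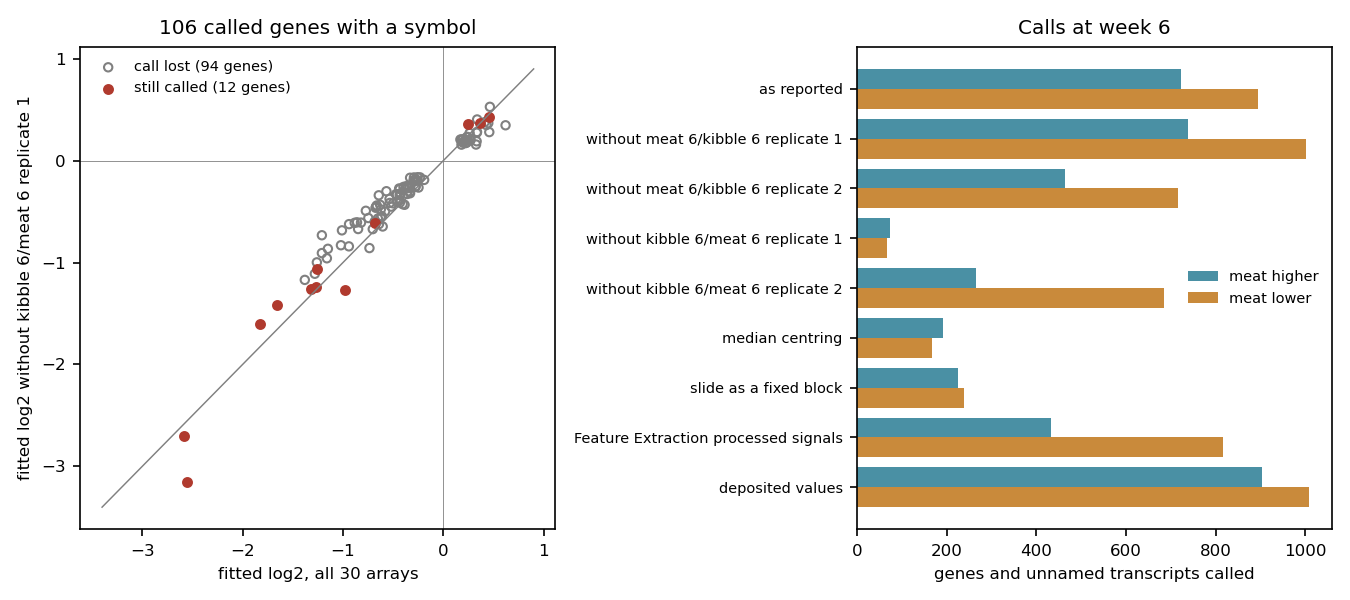
Left, fitted log2 of the 106 called named genes with all 30 arrays (x axis) and without kibble 6/meat 6 replicate 1 (y axis); 12 genes stay called (red), and values keep their sign. Right, number of genes and transcripts called higher or lower under the reported setting, without each week 6 array, and under 4 other ways of processing; the counts fall to 138 without that array and to 358 with median centring.

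Probes were compared where a gene had several. For 45 of the 106 called genes other probes had passed the filter, and 63 of those 66 probes had the sign of the reported one. The 3 exceptions were 1 probe each of RHOB, WWP2 and NOS3.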

How the data were processed

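Per the labels, 200 ng of RNA per sample was amplified and labelled. Per the file headers, scanner files were made with Agilent Feature Extraction 10.10.1.1 and give the median intensity of each spot and its local background in Cy3 and Cy5. The deposited matrix holds a log2 ratio for each probe and array, made with limma per the submitters' processing notes, and served as an alternative. The design assumed mean signals, and medians were used because the files hold these.

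Intensities were corrected by normexp (offset 50) and log2 ratios normalised by loess within arrays. A probe was kept where it stood well above background in 7 or more of 60 channels, and the brightest probe represented each gene or accession (25933). Symbols came from RefSeq's gene list through accessions (1086). The fit used limma 3.58.1 in R 4.3.3 (with data.table, version 1.17.8) with group and dye terms, 23 residual degrees of freedom, two-sided tests and Benjamini-Hochberg adjustment within each comparison. Precision is limited by the number of arrays. The fit was also run on simulated data with independent noise on every array. That setting held no deviant array, no split by dye order and no shared dogs. It therefore cannot show how far these decide the calls reported here.

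Gene lists and the comparison were chosen with earlier results of these data known. Genes were named by rule: the 12 largest called per direction, up to 4 called and 3 uncalled members per list, the 3 smallest p per direction for each week difference (where 0 passed), the 10 with the largest mean over SD, and the 3 that differ most from the other arrays. Other called genes were added after their values were seen. Some genes are not reported here, though counts include them where they were tested. Alternatives are given in the closing section.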

Additional observations from a re-analysis of the deposited data

Results flagged for a closer look

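In 10 of 187 named genes 1 of the 4 arrays lay far from the others by Dixon's criterion (the gap to the nearest array over the whole range), which chance gives in about 1 of 20 such groups. Kibble 6/meat 6 replicate 1 was that array for 8 of them, with SVIP at -2.54, STOM at -2.05, RTN3 at -0.85, PLA2G7 at -1.04, CLIC1 at -0.32, EEF1A1 at 0.45, CYP3A12 at 0.76 and PLA2G15 at 1.09. On kibble 6/meat 6 replicate 2 TSHB stood apart at 0.48. On meat 6/kibble 6 replicate 1 PRF1 stood nearer to 0 than on the others, at -0.21. The called genes among the 10 were SVIP, STOM, RTN3, PLA2G15, TSHB and PRF1. Without kibble 6/meat 6 replicate 1 their fitted values were -0.73, -0.68, -0.34, 0.28, -1.11 and -0.55, and 0 of the 6 were called in limma.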

How the results depend on the processing

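The 1617 calls at week 6 became 358 after median centring, 463 when the slide was a fixed block, 2525 with scaling between arrays and 3128 with array weights. The 4 week 6 arrays alone gave 1 call with a dye term (5132 at an unadjusted p under 0.05) and 0 without it (3227). Leaving out single arrays gave 138 (without kibble 6/meat 6 replicate 1) to 2254 calls (without meat 0/kibble 0 replicate 1), and 950 without kibble 6/meat 6 replicate 2. The other settings gave 1248 to 1913, and with the replicate number as a block 1483 were called. The same-numbered arrays of opposite dye order deviated together at a correlation of 0.08, and the number was not taken to pair samples. Such a correlation cannot show whether the same dogs lie on both arrays. TC71707 and TC73608 did divide by replicate number in either dye order. The fit treats the arrays as independent, and sharing of dogs between them was not tested. Week 6 minus week 3 gave 1 call with Feature Extraction signals and 2 with array weights, and week 6 minus week 0 gave 3 with array weights. Without single arrays the counts were 0 to 256 for week 6 minus week 0 and 0 for week 6 minus weeks 3 and 9. The causes were not tested. None of the 106 called named genes turned its sign in any of these fits. Over their 4980 comparisons with another fit the call was lost in 766, and 88 named genes not called gained one in 109 of 4134. With the 4 arrays alone none of the 106 kept its call; in the 15 other processing alternatives 18 kept theirs throughout and in the 30 fits without 1 array 10 did, with 8 in both sets of fits, among them CAMP, GP1BA, PTGS1, HSD17B14, CCL5, AK1 and MS4A2. Over all fits the list median lay between -1.39 and -0.91 for platelet, -0.62 and -0.40 for cytotoxic, -0.40 and -0.13 for monocyte and 0.08 and 0.32 for ribosomal genes. Dim probes and the 2 arrays per dye order limit what small differences can be seen.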
